A study of Mus musculus with 6 samples.

Results

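The secreted type 2 effector genes of group 2 innate lymphoid cells (ILC2s) were followed as 8 genes of the 17831 gene columns in the count table: Il5, Il13, Il4, Il9, Csf2, Tnf, Areg and Calca. They were taken by name, as cytokines and growth factors known from ILC2s. The rule uses no measured value, but earlier results of these data were known when the genes were chosen. All 8 had a column and all 8 passed the filter on low counts. The comparison was bulk RNAseq of lung ILC2s from 3 WT libraries and 3 SIRPα KO libraries, and it asked how the transcripts for these products differ when SIRPα, an inhibitory receptor bound by CD47, is missing. WT mice carry the genotype label CB57BL/6, and SIRPα KO mice the label SIRPalphatm1Ynliu/J. The study used mice aged 6 to 8 weeks. Every mouse, WT or KO, had received 0.5 μg of recombinant mouse (rm) IL-33 into the nose on 3 days, so no library stands for resting ILC2s. On day 4 the cells were sorted from lung by CD45, CD127 and ST2 and by the lack of lineage markers, and were then kept with rmIL-2 and rmIL-7, each at 10 ng/mL, before RNA was taken. The culture time is given as 18 h in one place and as 24 h in another. The SIRPα KO allele is carried by the whole animal and not by ILC2s alone, and the number of mice behind a library is not given in the sources used here. In bulk RNA, fewer cells that make a transcript and less of it per cell cannot be told apart.

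ILC2s lack antigen receptors and respond to epithelial alarmins such as IL-33 by releasing cytokines. IL-5 drives the growth and survival of eosinophils, and IL-13 acts on airway epithelium and smooth muscle to raise mucus and airway reactivity. GM-CSF, the product of Csf2, sustains myeloid cells, and amphiregulin is an epidermal growth factor receptor (EGFR) ligand linked to tissue repair. In mice Il4, Il13 and Il5 lie together in the type 2 cytokine locus with Rad50 between Il13 and Il5, GATA3 is the leading transcription factor of that locus in ILC2s, and many cytokine mRNAs carry AU-rich elements through which they are degraded quickly.

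The promoters of Il5 and Il13, the cytokines for which ILC2s are best known, are shown over the 200 bases before the RefSeq start in GRCm38.p6, in the direction of transcription, with matches to the GATA letters (AGATAA, also with T as the first or G as the last letter, on either strand) in capitals.
Il5, chr11:53720594-53720793, plus strand: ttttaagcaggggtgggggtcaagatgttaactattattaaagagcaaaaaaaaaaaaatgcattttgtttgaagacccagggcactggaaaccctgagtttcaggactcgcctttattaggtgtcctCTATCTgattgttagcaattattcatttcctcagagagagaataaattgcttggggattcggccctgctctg
Il13, chr11:53634703-53634902, minus strand: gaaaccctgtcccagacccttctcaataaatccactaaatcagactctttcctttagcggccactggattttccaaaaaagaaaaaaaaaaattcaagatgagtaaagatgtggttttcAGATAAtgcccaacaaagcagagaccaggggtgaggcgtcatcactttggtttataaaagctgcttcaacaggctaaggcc
Each held 1 match, beginning 72 bases before the start in Il5 and 81 bases before it in Il13. The GATA letters were also sought over the 300 bases from 250 before to 50 after a start. A match was present in Csf2, Calca and both listed promoters of Il4, and none was found in Tnf, Areg or Il9. In 1 Il4 promoter the match began 14 bases after the start. The RefSeq start of Csf2 lies 232 bases upstream of its GENCODE start, so bases just before the GENCODE start were not searched. The GATA letters occurred in 29.8% of 32851 RefSeq promoters of 300 bases. The AP-1 letters TGAGTCA or TGACTCA were found in Il9 alone among the 8 genes, 140 bases before the start, and in 5.2% of all promoters. The NFAT core GGAAA was in all of them, with 1 to 5 matches each, and in 61.3% of all promoters.

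The 3′ UTRs of 7 of the 8 genes held the pentamer ATTTA, the core of AU-rich elements. So did those of 7873 of the 11299 tested genes with an annotated 3′ UTR, where the median count was 2. The densest 30 bases of the 3′ UTR are given here for 5 of the 8 genes, with each ATTTA in capitals. They come from GENCODE M21 (mm10) and run 5′ to 3′ along the transcript.
Csf2, chr11:54247329-54247358, minus strand: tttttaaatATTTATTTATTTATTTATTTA
Tnf, chr17:35199679-35199708, minus strand: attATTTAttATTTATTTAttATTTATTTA
Areg, chr5:91148369-91148398, plus strand: ataATTTATTTAatATTTAagtgttATTTA
Il5, chr11:53724105-53724134, plus strand: gataccatatgctgtttccATTTAtATTTA
Il13, chr11:53631733-53631762, minus strand: atcttATTTAttatggttgtgtgttATTTA
The windows of Csf2 and Tnf each held 5 pentamers, that of Areg 4, and those of Il5 and Il13 2 each. Over the whole 3′ UTR there were 9 pentamers in Csf2 (317 bases), 8 in Tnf (764 bases), 7 in Il5 (1092 bases), 4 in Areg (253 bases), 3 in Il13 (741 bases), 3 in Il9 (86 bases) and 2 in Il4 (104 bases), and Calca had none in 452 bases. The density was 34.9 per kb in Il9, 28.4 in Csf2, 19.2 in Il4, 15.8 in Areg, 10.5 in Tnf, 6.41 in Il5 and 4.05 in Il13. The median was 1.31 per kb over the 11299 tested genes with an annotated 3′ UTR. Of those genes, 8 had a higher density than Csf2, 96 a higher one than Tnf, 367 a higher one than Il5 and 1179 a higher one than Il13.

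The libraries held 13980491 to 19051504 counted reads. Sirpa, the targeted gene, had 149, 96 and 73 reads in WT and 48, 85 and 28 in SIRPα KO. This difference of -1.12 on the log2 scale (standard error 0.42) was not past the threshold (adjusted p = 0.115, edgeR). All SIRPα KO libraries lay below all WT libraries in Sirpa after scaling, but reads remained in all of them, and which exons the allele removes is not given in the sources used here. Libraries stood apart in 3 ways that touch the values of the 8 genes. The sample descriptions label WT replicate 1 as 37 and WT replicate 2 as 37V1, and label SIRPα KO replicate 2 as 44 and SIRPα KO replicate 3 as 44V1, while the series text speaks of duplicates, so the groups may rest on 2 sources each. The libraries of a code differed by more than sampling noise and were kept apart in n, which counts libraries. The chi-square per degree of freedom between 2 libraries was 28.28 for the WT pair of one code, against 61.38 and 73.9 for the other WT pairs. In SIRPα KO it was 10.18 for the pair of one code, against 8.072 and 11.52, so only in WT was that pair the closest. Nothing states that the libraries of a group came from separate mice, so the p-values may measure technical spread only. Moreover, replicates differed more in WT, with a biological coefficient of variation by edgeR of 38%, than in SIRPα KO, with 15.2%. Fold changes also followed transcript length. The median log2 fold change ran from -0.55 in the decile of shortest transcripts to 0.47 in the decile of longest ones. Within WT, replicate 3 followed length with the opposite sign, from 0.53 to -0.51 against WT replicates 1 and 2. The 8 genes have short transcripts, 536 to 1639 bases against a median of 3057 over the genes tested, and all of them lie in the 2 shortest deciles. A value corrected for transcript length and GC content is therefore given for each gene. The correction removes the trend by its design. It raised the median of the 2 shortest deciles from -0.55 and -0.28 to -0.024 and 0.0023, so an upward move of short genes is built in. Whether the trend is technical or goes with the genotype was not tested.

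**Figure D1:**
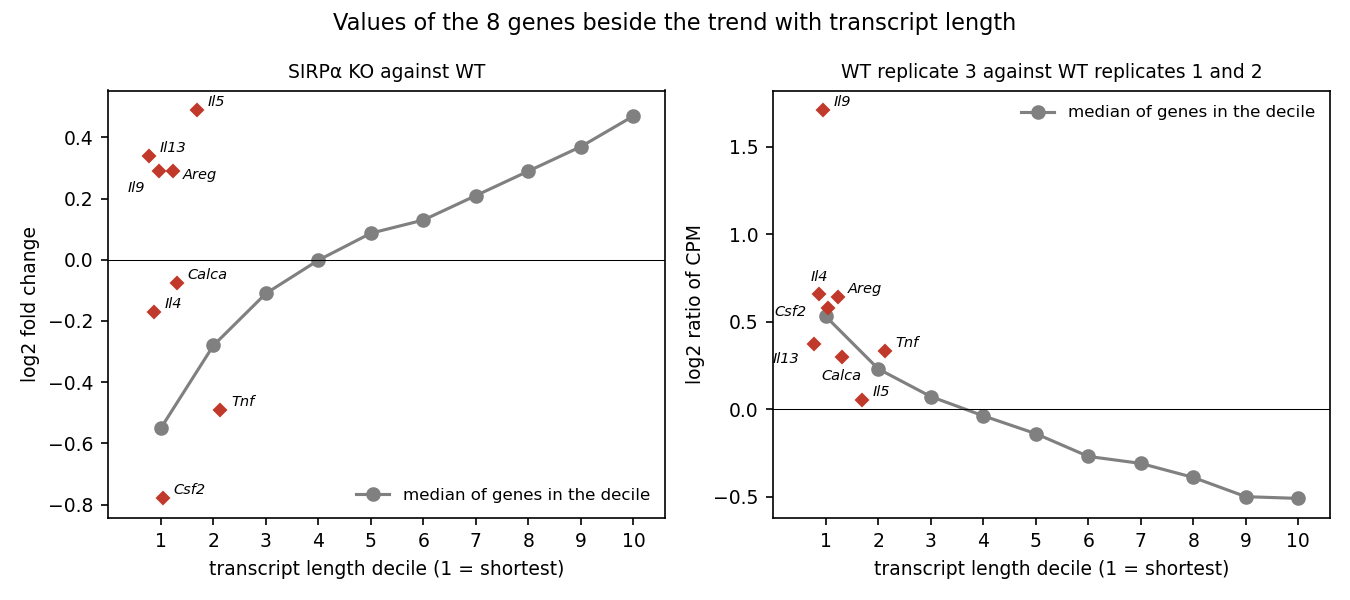
Left, log2 fold change of SIRPα KO against WT; right, log2 ratio of CPM (counts scaled to library size) in WT replicate 3 to the mean of WT replicates 1 and 2. Grey points are medians of genes in each decile of transcript length and red diamonds are the 8 genes, which sit in deciles 1 and 2 and are set slightly apart within them. On the left, Csf2 and Tnf lie below the median of their decile and the other 6 genes above it, and on the right Il9 lies highest at 1.71.

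Of the 8 genes, Il5 rose and Csf2 fell in SIRPα KO, and the other 6 did not pass the threshold (adjusted p under 0.05 from edgeR's quasi-likelihood test). By comparison, 11.7% of the 13623 genes tested passed it, 5.94% upward and 5.81% downward. The fold changes pointed up for Il5, Il13, Il9 and Areg and down for Il4, Csf2, Tnf and Calca, with a median of 0.10 against -0.025 over all genes tested. The groups did not overlap for Il5, Il13, Csf2 and Tnf, 4 of the 8, where 42.8% of all genes tested did not overlap. With the correction for length and GC content, 3 of the 8 were past the threshold (Il5 and Il13 higher, Csf2 lower), against 8.91% of all genes, and 6 pointed up. With libraries of one code summed, which leaves 2 against 2, none of the 8 was past it, and 10 genes were in the whole table. It was also none when any one SIRPα KO replicate was left out, where 16 or 17 genes remained in the whole table. At an unadjusted p under 0.05 there were 2 of the 8 with codes summed, beside 3359 of all 14581 genes tested there. With a SIRPα KO replicate left out there were 2 or 3 of the 8. Beside them stood 2991 of 14242, 2935 of 14146 and 3183 of 14141 genes, in the order of the replicates. With all 6 libraries it was 4 of the 8, beside 4355 of 13623 genes.

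**Figure D2:**
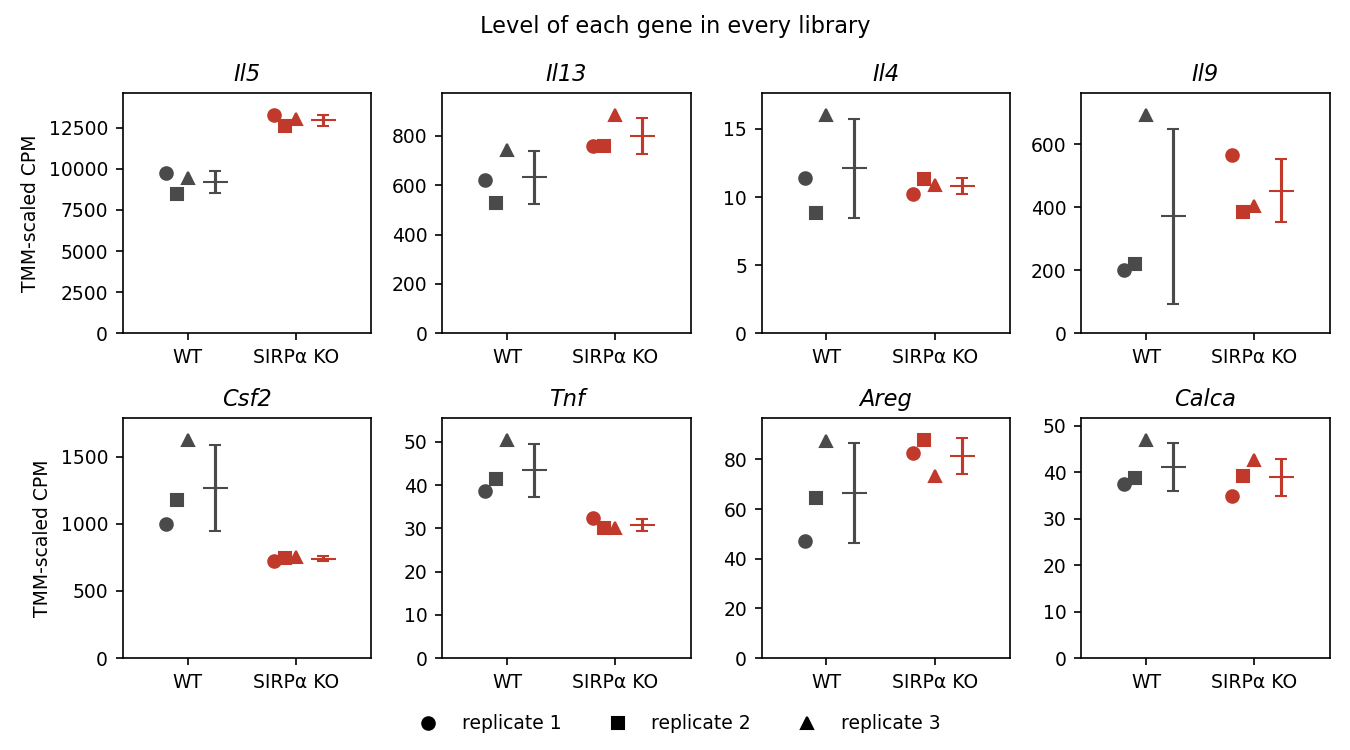
Level of each of the 8 genes in TMM-scaled CPM (counts scaled to library size), with 1 point per library, shaped by replicate number, and bars for the mean ± SD of 3 libraries. The SIRPα KO libraries sit apart from the WT libraries for Il5, Il13, Csf2 and Tnf, and WT replicate 3 is the highest WT library for every gene but Il5.

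Il5 encodes the eosinophil growth factor IL-5 and lies on chromosome 11 of mm10 from 53720794 to 53725106 on the plus strand. It had the highest count of any gene in the table, at 0.85% to 0.977% of all counted reads in WT and 1.26% to 1.31% in SIRPα KO. Its levels were 9711, 8448 and 9418 CPM in WT replicates 1, 2 and 3, and 13241, 12589 and 13023 CPM in the SIRPα KO replicates. All 3 SIRPα KO libraries lay above all 3 WT libraries, and both groups were tight, with the highest WT library 1.15 times the lowest and the highest SIRPα KO library 1.05 times the lowest. The means were 9192 ± 661 and 12951 ± 332 CPM (SD of 3 libraries each). The log2 fold change was 0.49 (standard error 0.074, 95% interval 0.32 to 0.67), or 1.41-fold, with an adjusted p of 0.0138 from edgeR. It lost the call without any one SIRPα KO replicate (adjusted p 0.0806 to 0.0989) and with libraries of one code summed (0.131), while its size stayed between 0.44 and 0.54 with each library left out in turn. Corrected for length and GC content, it was 0.61 (adjusted p = 0.00446, edgeR).

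An antisense gene, Gm12214, overlaps the 3′ end of Il5 from 53723953 to 53724618. Whether strand was used in counting is not stated, and reads of this pair cannot be told apart. Gm12214 had 130, 209 and 262 reads in WT and 384, 500 and 443 in SIRPα KO, which is small beside the 118807 to 239912 reads of Il5. Its log2 fold change was 0.98 (adjusted p = 0.0712, edgeR), and the groups did not overlap.

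Il13 encodes the cytokine that acts on airway epithelium and smooth muscle, and lies on chromosome 11 from 53631324 to 53634702 on the minus strand. Its levels were 622, 527 and 743 CPM in the WT replicates and 759, 756 and 882 CPM in the SIRPα KO replicates. The groups did not overlap, but WT replicate 3 came close to the lowest SIRPα KO library. The means were 631 ± 108 and 799 ± 72.0 CPM (SD of 3 libraries each). The log2 fold change of 0.34 (standard error 0.14, 95% interval 0.016 to 0.67) did not pass the threshold (adjusted p = 0.141, edgeR). Without WT replicate 3, the library that stood apart in transcript length, the log2 fold change was 0.48 and the adjusted p 0.0211 (edgeR). Calls then rose in the whole table too, to 2606 of 14143 genes from 1600 of 13623. No other library, left out alone, took Il13 past the threshold, and without WT replicate 2 its log2 fold change was 0.22. The cause of these shifts was not tested. Corrected for length and GC content, the levels were 586, 503 and 529 CPM in WT against 882, 878 and 1021 CPM in SIRPα KO. On that scale WT replicate 3 lay between the other 2 WT libraries, and SIRPα KO exceeded WT by 0.78 on the log2 scale (standard error 0.093, adjusted p = 0.00576, edgeR). With the correction and libraries of one code summed, it was 0.76 and the adjusted p 0.0847.

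Il4, which encodes the cytokine that drives class switching to IgE and T helper 2 differentiation, lies next to Il13 on chromosome 11 from 53602982 to 53618669 on the minus strand. Its levels were low, at 11.4, 8.82 and 16.0 CPM in the WT replicates and 10.2, 11.3 and 10.9 CPM in the SIRPα KO replicates, on 124 to 242 reads a library. The groups overlapped, with both the highest and the lowest library in WT. The log2 fold change was -0.17 (standard error 0.26, 95% interval -0.77 to 0.44, adjusted p = 0.693, edgeR). Its sign was not stable: it was 0.28 with the correction for length and GC content and 0.097 without WT replicate 3. Mast cells and basophils also make IL-4, and the lineage gate, which held FcεRIα, would remove them. Of 10 of their markers, all with a column, the summed level was 116 to 144 CPM in WT against 168 to 233 CPM in SIRPα KO. Kit, which ILC2s can express too, had 46.3 to 117 CPM in WT against 164 to 179 CPM in SIRPα KO. Fcer1a, the IgE receptor chain of those cells, had under 1 CPM in every library. Other markers of the list also held reads, since the sum was at least 116 CPM in the WT library with Kit at 46.3 CPM. Of the 6 markers tested, 2 pointed up and 4 down, none past the threshold in edgeR (3 at an unadjusted p under 0.05, and 1 past it in DESeq2), with a median log2 fold change of -0.68. The part of such cells in the Il4 reads was not tested.

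Ratios between these 3 genes within a library do not depend on the scaling between libraries. There were 12.7 to 17.4 reads on Il5 for each on Il13 over the 6 libraries. The log2 ratio of Il5 to Il13 was 3.96, 4.0 and 3.66 in WT and 4.12, 4.06 and 3.88 in SIRPα KO, and the groups overlapped (difference 0.15, exact permutation p = 0.4). The log2 ratio of Il5 to Il4 was 9.73, 9.9 and 9.2 in WT and 10.35, 10.12 and 10.23 in SIRPα KO, and every SIRPα KO library was higher. The difference was 0.62. The log2 ratio of Il13 to Il4 was 5.77, 5.9 and 5.54 in WT and 6.22, 6.06 and 6.34 in SIRPα KO, again with every SIRPα KO library higher and a difference of 0.47. Both had an exact permutation p of 0.1 (two-sided), the smallest that 3 against 3 allows, and 0.15 after adjustment over the 3 ratios, so the design could not take them past 0.05. With libraries of one code summed, the smallest possible p is 0.333. Transcript length and GC content differ between Il4 (605 bases, 42.3%), Il13 (1205 bases, 53.4%) and Il5 (1537 bases, 44.9%). The ratios changed with the correction for length and GC content. From corrected CPM, the log2 ratio of Il5 to Il13 turned, with 4.06, 4.07 and 3.97 in WT and 3.96, 3.91 and 3.73 in SIRPα KO, all lower (difference -0.17, exact permutation p = 0.1). That of Il5 to Il4 fell to a difference of 0.32 with overlapping groups (exact permutation p = 0.2). That of Il13 to Il4 stayed apart, at a difference of 0.48 (exact permutation p = 0.1).

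**Figure D3:**
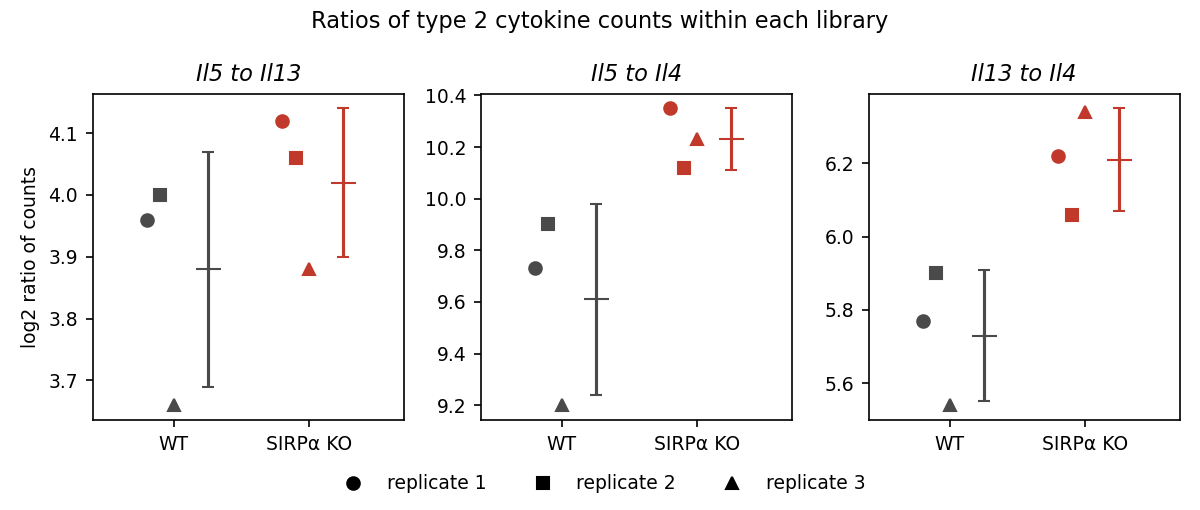
Log2 ratio of read counts between Il5, Il13 and Il4 within each library, with 1 point per library and bars for the mean ± SD of 3 libraries; the vertical axes do not start at 0 and differ between panels. SIRPα KO libraries sit above all WT libraries for the uncorrected ratios to Il4, and overlap them for Il5 to Il13. After the length and GC correction only Il13 to Il4 stays above, and Il5 to Il13 turns to -0.17.

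Il9, which encodes a growth factor for mast cells and ILC2s themselves, lies on chromosome 13 from 56479277 to 56482246 on the minus strand. Its levels were 202, 221 and 692 CPM in the WT replicates and 567, 386 and 405 CPM in the SIRPα KO replicates. WT replicate 3 was the highest library of all, and the other 2 WT libraries were below every SIRPα KO library, so that the result turned on 1 library. The log2 fold change was 0.29 (standard error 0.45, 95% interval -0.75 to 1.32, adjusted p = 0.692, edgeR). Without WT replicate 3 it was 1.11 (adjusted p = 0.00827), and without WT replicate 1 it was -0.0067. Corrected for length and GC content, WT replicate 3 had 422 CPM beside 206 and 203 in the other WT libraries and 465 to 681 in SIRPα KO. The groups then no longer overlapped, and the log2 fold change was 0.98 (adjusted p = 0.0812, edgeR). Even on that scale WT replicate 3 was 1.04 above the mean of WT replicates 1 and 2 on the log2 scale, and it is the only WT library with its code.

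Csf2 encodes GM-CSF and lies on chromosome 11 from 54247271 to 54249667 on the minus strand, beyond Il5 in the same cytokine cluster. Its levels were 999, 1178 and 1623 CPM in the WT replicates and 720, 747 and 752 CPM in the SIRPα KO replicates. The SIRPα KO libraries all lay lower than the WT libraries. They were within 1.05 times of each other while the WT libraries spanned 1.63 times. The means were 1267 ± 322 and 740 ± 17.6 CPM (SD of 3 libraries each). Csf2 fell by 0.78 on the log2 scale (standard error 0.17, 95% interval -1.17 to -0.39), to 0.584 of the WT level, with an adjusted p of 0.0297 from edgeR. The call was lost without any one SIRPα KO replicate (adjusted p 0.113 to 0.139) and with libraries of one code summed (0.139). Corrected for length and GC content, WT had 1016, 1128 and 1140 CPM and SIRPα KO 814, 853 and 853 CPM. The groups stayed apart, and the log2 fold change shrank to -0.38 (adjusted p = 0.0221, edgeR). An antisense gene, Gm12223, runs across Csf2 and had 0 to 9 reads a library.

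Tnf encodes the inflammatory cytokine TNF and lies on chromosome 17 from 35199381 to 35202007 on the minus strand, between Ltb and Lta. Its levels were 38.6, 41.3 and 50.4 CPM in the WT replicates and 32.3, 30 and 30.1 CPM in the SIRPα KO replicates. All 3 WT libraries were above all 3 SIRPα KO libraries. The log2 fold change of -0.49 (standard error 0.16, 95% interval -0.86 to -0.12) did not pass edgeR's threshold (adjusted p = 0.0821) and did pass that of DESeq2 (adjusted p = 0.029). Corrected for length and GC content, it was -0.22 (adjusted p = 0.299, edgeR). Its neighbours Lta and Ltb, which encode the lymphotoxins, were lower by log2 fold changes of -1.25 and -1.61 (adjusted p = 0.0101 and 0.00586, edgeR). Lta had 276, 363 and 423 CPM in WT against 147, 156 and 144 CPM in SIRPα KO, and Ltb had 72.9, 66.0 and 70.2 CPM in WT against 18.7, 23.1 and 26.6 CPM in SIRPα KO.

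Lymphocyte markers were lower in SIRPα KO, as Csf2, Lta and Ltb were, although the lineage gate held CD3ε, B220 and CD335. The B cell list, with 6 of 7 genes in the table and 5 of 6 tested lower past the threshold, summed to 216 to 479 CPM in WT against 23.1 to 84.6 CPM in SIRPα KO. The list for natural killer (NK) cells or ILC1s, with all 6 in the table and 3 of 5 tested lower past the threshold, summed to 18 to 25.4 CPM in WT against 1.85 to 4.04 CPM in SIRPα KO. The T cell list, with 5 of 7 in the table and 1 of 2 tested lower past the threshold, summed to 18.3 to 22.1 CPM in WT against 4.67 to 5.37 CPM in SIRPα KO, and Cd4 was at 0 reads in all WT libraries. Macrophage or dendritic cell markers, all 10 in the table, summed to 46.3 to 140 CPM in WT against 87.4 to 131 CPM in SIRPα KO. The 12 ILC2 markers were present in every library. They did not share one direction, with 6 pointing up and 6 down, 2 past the threshold each way (Il2ra and Ptprc higher, Id2 and Thy1 lower) and a median log2 fold change of -0.066. Their sum, of which Il2ra was the largest part in SIRPα KO, was 5261 to 6552 CPM in WT against 7720 to 7881 CPM in SIRPα KO, with Gata3 at 946 ± 119 and 1012 ± 32.8 CPM (SD of 3 libraries each). The part of other cells in the 8 genes was not tested.

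Areg encodes amphiregulin and lies on chromosome 5 from 91139599 to 91148432 on the plus strand. Its levels were 47.1, 64.6 and 87.3 CPM in the WT replicates and 82.5, 87.8 and 73.4 CPM in the SIRPα KO replicates. WT replicate 3 lay among the SIRPα KO libraries, while the other 2 WT libraries were below all of them. SIRPα KO differed from WT by 0.29 on the log2 scale (standard error 0.22, 95% interval -0.22 to 0.80, adjusted p = 0.389, edgeR). Without WT replicate 3 it was 0.55 (adjusted p = 0.0568), and without WT replicate 1 it was 0.10. Corrected for length and GC content, the groups did not overlap and the log2 fold change was 0.61 (adjusted p = 0.0569, edgeR). Of the 7 EGFR ligands, 5 were in the table, 4 were tested and none passed the threshold by edgeR or DESeq2 (1 had an unadjusted p under 0.05 in edgeR), with a median log2 fold change of 0.059. Hbegf, the next most abundant, had 15.7 ± 4.85 CPM in WT against 13.5 ± 3.49 CPM in SIRPα KO (SD of 3 libraries each), and the groups overlapped.

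Calca encodes the precursors of calcitonin and of the neuropeptide CGRP through alternative splicing, which counts per gene do not separate. It lies on chromosome 7 from 114631478 to 114636357 on the minus strand. Its levels were 37.4, 38.8 and 46.9 CPM in the WT replicates and 34.8, 39.2 and 42.7 CPM in the SIRPα KO replicates. The groups overlapped, and the highest library was 1.25 times the lowest in WT and 1.23 times in SIRPα KO. SIRPα KO differed from WT by -0.077 on the log2 scale (standard error 0.16, 95% interval -0.45 to 0.30, adjusted p = 0.774, edgeR). It was 0.31 with the correction for length and GC content (adjusted p = 0.19), and its sign also turned without WT replicate 3 and without SIRPα KO replicate 1. Pulmonary neuroendocrine cells are another source of CGRP in lung, which the CD45 gate would remove. Their marker Syp had 1.04 to 2.20 CPM in WT against 0.192 to 1.12 CPM in SIRPα KO. The list for epithelial or neuroendocrine cells, to which Syp belongs, had 5 of 7 genes in the table. It summed to 53.6 to 68.5 CPM in WT against 8.56 to 69.6 CPM in SIRPα KO. All 4 of its tested genes pointed down, 1 past the threshold in edgeR. Of the other genes of the calcitonin family, Adm and Adm2 had at most 1.19 CPM in a library and were not tested.

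**Figure D4:**
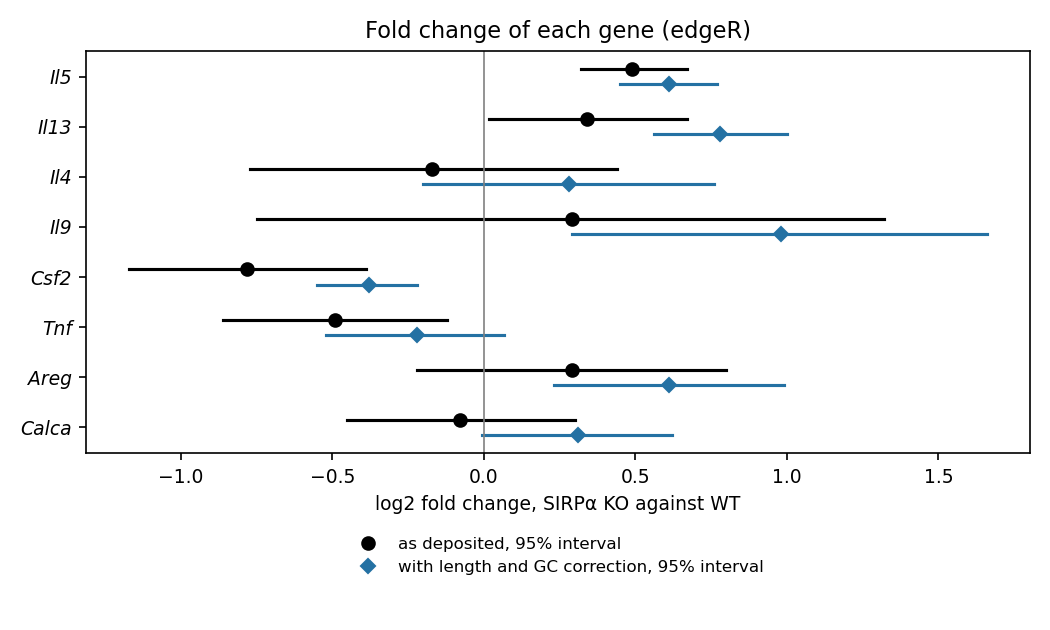
Log2 fold change of each of the 8 genes in SIRPα KO against WT, with 95% intervals from edgeR, as deposited (black circles) and corrected for length and GC content (blue diamonds). The correction raises the shortest transcripts by its design, and it moved every point upward, least for Il5 (0.49 to 0.61) and most for Il9 (0.29 to 0.98). The moves did not follow length alone. Tnf (1639 bases, GC 52.1%) moved from -0.49 to -0.22, more than the shorter Il5 (1537 bases, GC 44.9%). The parts of length and GC content were not separated. After the correction the interval of Csf2 lay wholly below 0 and those of Il5, Il13, Il9 and Areg wholly above 0. Of these, Il9 and Areg were not past the adjusted threshold.

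Levels were set in order per kilobase of the longest annotated transcript (CPM per kb), which need not be the form expressed. In WT, Il5 stood first at 5981 ± 430 CPM per kb, followed by Csf2 at 1583 ± 402, Il9 at 693 ± 518 and Il13 at 524 ± 90 (SD of 3 libraries each). Areg (54.6 ± 16.6), Calca (41.3 ± 5.17), Tnf (26.5 ± 3.77) and Il4 (20 ± 6.03) followed. The libraries overlapped between Csf2 and Il9, Il9 and Il13, Areg and Calca, and Tnf and Il4, so the spread of these neighbours overlapped. Within a library, however, Csf2 was above Il9, Areg above Calca and Tnf above Il4 in all 3 WT libraries, and Il9 was above Il13 in 1 of 3. In SIRPα KO the order of the means was the same. Il5 stood at 8426 ± 216 CPM per kb, 9.11 times Csf2, where the WT mean was 3.78 times that of Csf2. Csf2 (925 ± 22.0), Il9 (845 ± 185) and Il13 (663 ± 59.7) overlapped each with the next, as did Tnf (18.8 ± 0.797) and Il4 (17.8 ± 0.974). Areg and Calca no longer overlapped in SIRPα KO. For all 8 genes the ratio of the highest to the lowest library was larger in WT, from 1.15 to 3.42, than in SIRPα KO, from 1.05 to 1.47.

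Of 18 receptor genes for these products, 15 were in the table and 13 were tested, with a median log2 fold change of -0.11. Past the threshold were 2 higher and 2 lower, where 11.7% of all genes tested passed it. Of these 4 calls only that of Ramp1 held without each library in turn. Ramp1, which pairs with Calcrl to form the CGRP receptor, had 144, 127 and 154 CPM in WT against 46.6, 45.5 and 51.5 CPM in SIRPα KO. Ramp1 fell by 1.56 on the log2 scale (standard error 0.13, adjusted p = 0.00243, edgeR), by 1.45 after correction, and its call held without each library in turn, though not with codes summed (0.122). Ramp3 fell by 1.19 (adjusted p = 0.0437), but not past the threshold after correction or without WT replicate 2 or any SIRPα KO replicate. Calcrl itself was at 56.0 ± 20.8 CPM in WT against 92.3 ± 3.73 CPM in SIRPα KO (SD of 3 libraries each), with an adjusted p of 0.109 from edgeR. Tnfrsf1b, which encodes a TNF receptor, rose by 0.77 on the log2 scale (adjusted p = 0.0361, edgeR) and by 0.70 after correction. Egfr, the amphiregulin receptor, rose by 1.67 (adjusted p = 0.0469) from low levels, with 18.5, 9.03 and 6.82 CPM in SIRPα KO. The calls of Egfr and Tnfrsf1b were lost without WT replicate 1 or any SIRPα KO replicate, and that of Egfr also without WT replicate 2 and after correction. Il5ra, the IL-5 receptor chain of eosinophils, had 0 reads in all SIRPα KO libraries and 0 to 1.85 CPM in WT, and Il4ra and Il9r did not pass the threshold.

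Among 26 other cytokine genes, 18 were in the table and 12 were tested. Il6 alone rose past the threshold, and Lta, Ltb and Tgfb1 fell, with a median log2 fold change over the 12 of 0.16. Il6 had 8.74, 9.67 and 12.2 CPM in WT against 35.7, 35.7 and 35.5 CPM in SIRPα KO. Tgfb1, which encodes the regulatory cytokine TGF-β1, had 363 ± 29.3 CPM in WT against 236 ± 6.26 CPM in SIRPα KO (SD of 3 libraries each), and its log2 fold change was -0.62 (adjusted p = 0.0162, edgeR). Il3, the neighbour of Csf2, was not listed in the table. All 4 calls held after correction. Those of Il6, Lta and Tgfb1 were lost without any one SIRPα KO replicate, and that of Ltb without SIRPα KO replicate 1 or 2.

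Genes for the release and maturation of these products did not pass the threshold by edgeR or DESeq2. Of 9 such genes, 7 were tested in edgeR, 1 had an unadjusted p under 0.05 and 6 pointed up, and the median log2 fold change was 0.36, or 0.20 after correction. Furin, a proprotein convertase, was the most abundant at 3343 ± 840 CPM in WT against 4279 ± 275 CPM in SIRPα KO (SD of 3 libraries each), and Pcsk1, the convertase that cleaves prohormones, followed at 382 ± 120 and 443 ± 14.4 CPM. Adam17, the protease that sheds amphiregulin and TNF from the cell surface, had a log2 fold change of 0.56 (adjusted p = 0.148, edgeR).

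All 24 transcription factors listed for type 2 cytokine genes were tested. Of the 24, 8 had an unadjusted p under 0.05 in edgeR, beside 4355 of all 13623 genes tested. By DESeq2 1 rose and 6 fell past the threshold, beside 3214 of 11944 genes that passed it in either direction. By edgeR none rose and 3 fell past the threshold. The median log2 fold change was -0.18. The 3 were Klf2, a quiescence factor, by 2.29, Nfkb1, the NF-κB p105 and p50 subunit gene, by 0.75, and Bhlhe40, a regulator of cytokine production, by 0.55 on the log2 scale (adjusted p = 0.0252, 0.0101 and 0.0334, edgeR). Nfkb1 had 337, 335 and 316 CPM in WT against 205, 190 and 194 CPM in SIRPα KO. Their calls were lost without any one SIRPα KO replicate, and those of Klf2 and Bhlhe40 also without WT replicate 1. Gata3 had a log2 fold change of 0.097 (adjusted p = 0.566, edgeR), and the groups overlapped. After correction 6 of the 24 passed, with Batf higher (0.79) and Rora, Bcl11b, Nfkb1, Bhlhe40 and Klf2 lower.

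Of 19 genes that control the decay of cytokine mRNA, all were tested, 13 pointing up and 6 down, with a median log2 fold change of 0.18. Arid5a, which binds and stabilizes Il6 and other mRNAs, had a log2 fold change of -0.96 (adjusted p = 0.0135, edgeR), from 296, 241 and 213 CPM in WT to 122, 135 and 127 CPM in SIRPα KO. Cnot7, a deadenylase of the CCR4-NOT complex, rose by 0.83 (adjusted p = 0.0186), and by 0.45 after correction, where it was no longer past the threshold (adjusted p = 0.0697). Both calls were lost without any one SIRPα KO replicate. Zfp36, the tristetraprolin gene whose product binds the AU-rich elements shown above, had 31.2, 25.7 and 22.0 CPM in WT against 31.8, 28.4 and 27.4 CPM in SIRPα KO, with a log2 fold change of 0.15 (adjusted p = 0.602, edgeR).

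Genes around the type 2 cytokine locus did not share one direction. Of 21 listed, 18 were in the table and 15 were tested, with 9 pointing up and 6 down. Past the threshold were Il5, Csf2, Aff4, which rose by 1.06 on the log2 scale (adjusted p = 0.0158, edgeR), and Uqcrq, which fell by 0.93 (adjusted p = 0.03). Rad50, which lies between Il13 and Il5, had 128, 130 and 106 CPM in WT against 174, 150 and 167 CPM in SIRPα KO. Rad50 differed by 0.43 on the log2 scale (adjusted p = 0.0658, edgeR) and 0.013 after correction. Kif3a, beside Il4, had 0.33 (adjusted p = 0.27), and Irf1, beyond Il5, had -0.13 (adjusted p = 0.595). Aff4 and Uqcrq lost their calls without any one SIRPα KO replicate.

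The genes whose pattern over the 6 libraries was nearest to that of a cytokine were found by the root mean square difference of centred log2 CPM, among the 9138 genes whose average log2 CPM was 3 or more. Nearest to Il5 were Wdr12 (0.0406), Rsl1d1 (0.0545) and Akr1c13 (0.0563). Nearest to Il13 were Tars2 (0.0667), Impa1 (0.0748) and Ublcp1 (0.0751), and nearest to Il4 were Dph1 (0.0506), Exosc4 (0.0558) and Fdx2 (0.0683). Among the genes nearest to Areg were Slc22a5 (0.0535) and Tnrc6b (0.0655). The libraries share their scaling, and with 6 libraries near matches arise among many genes, so these names are a description only.

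**Figure D5:**
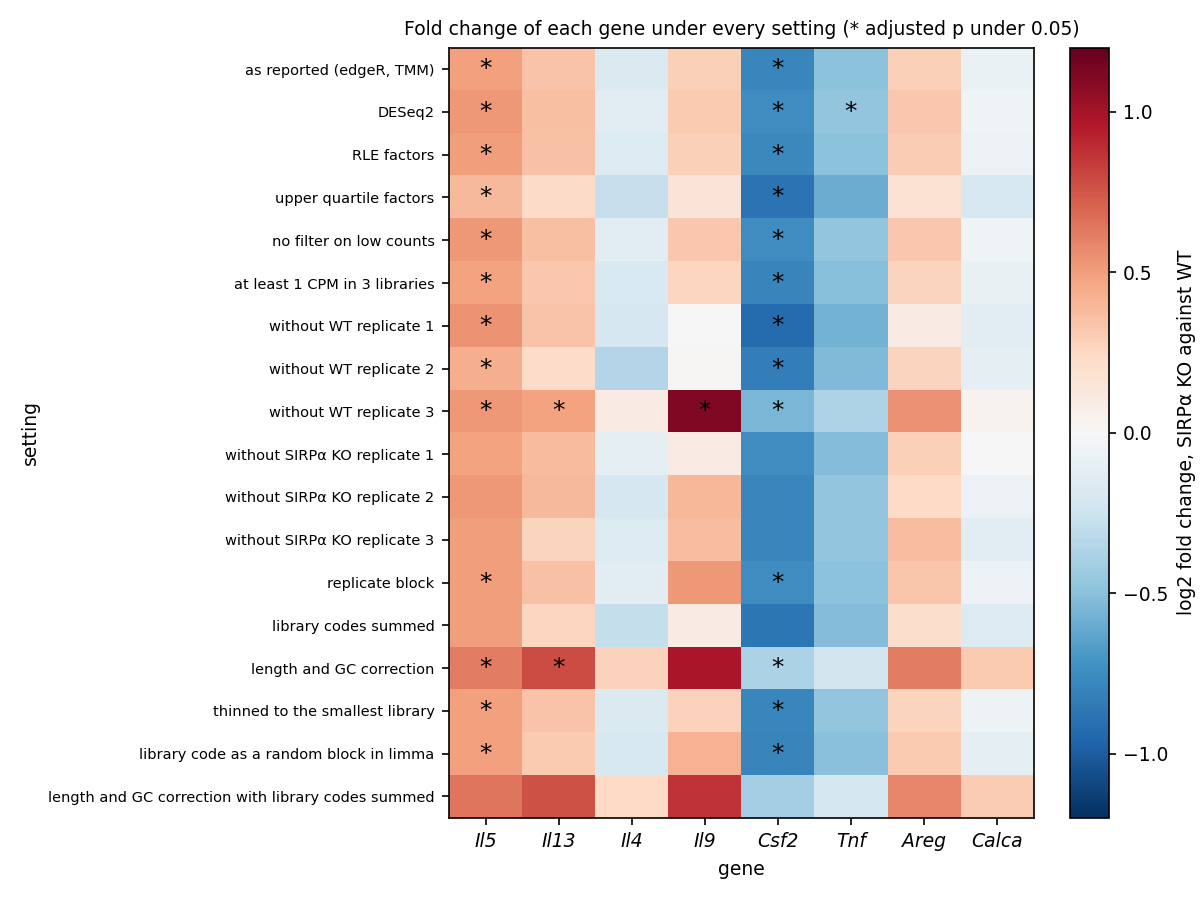
Log2 fold change of each of the 8 genes (columns, colour scale) under the reported test and 17 alternative settings (rows), with an asterisk where the adjusted p was under 0.05. Il5 stayed above 0 and Csf2 and Tnf below 0 under every setting shown, whereas the signs of Il4, Il9 and Calca changed, and no gene was past the threshold without a SIRPα KO replicate or with library codes summed.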

How the data were processed

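Bulk RNAseq of lung ILC2s was measured in 6 libraries, 3 WT and 3 SIRPα KO, grouped by their GEO labels. The authors made libraries from 10 pg of RNA with a SMARTer ultra low input kit and deposited estimated counts per gene, not scaled for depth, from STAR alignment in Partek to mm10 with the GENCODE M21 annotation. GEO's processing notes name Partek 10.0, STAR 2.7.8 and DESeq2, and the study's methods name other versions of the first 2. Between 56.9% and 60.7% of values in a library were whole, and all were rounded to whole counts. Library totals were 13980491 to 19051504, and intervals cover the spread between libraries. All 17831 gene columns entered the fit, of which 173 were mapped by name and 17658 were read as the same unit without being listed singly.

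Genes were kept by edgeR's filterByExpr (minimum count 10, minimum total 15), scaled by TMM and tested by edgeR 4.0.16's quasi-likelihood test in R 4.3.3, with Benjamini-Hochberg adjustment over all genes kept and a threshold of 0.05. The length and GC correction used a per-library offset from a spline (5 degrees of freedom) fitted on 8890 genes, with the longest annotated transcript of each gene. Of the symbols, 17400 matched the annotation directly, 186 by a synonym, and 245 did not match. Ratios used a two-sided exact permutation test (scipy 1.17.1). Alternatives were DESeq2 1.42.0, other scaling and filters, each library left out, the replicate number as a block, libraries of one code summed, thinning, and the correction. A limma 3.58.1 fit with library code as a random block, the correction with codes summed, and ratios of corrected CPM, were chosen after seeing the data. The fit was tested on simulated data. Promoters came from RefSeq (GRCm38.p6) and 3′ UTRs from GENCODE M21.

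The genes and lists were chosen with earlier results of these data known. Named were the 8 genes and Sirpa; from each list, genes past the threshold, at most 6 by size of fold change, or the 2 most abundant where none passed; the 3 nearest in pattern to Il5, Il13, Il4 and Areg; and neighbours on the chromosome. Calcrl, Il5ra, Il4ra, Il9r, Adam17, Zfp36, Gata3, Batf, Rora, Bcl11b, Adm, Adm2 and single marker genes were named outside this rule after their values were seen. Of the listed symbols, 26 had no column. Some items under this rule are not reported here. Eosinophil markers summed to 4.14 to 14.2 CPM in WT and 5.88 to 28.6 CPM in SIRPα KO, neutrophil markers to 0.173 to 11.2 and 0 to 0.472, and epithelial or neuroendocrine markers to 53.6 to 68.5 and 8.56 to 69.6.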

Additional observations from a re-analysis of the deposited data

How the results depend on the processing

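Over the 8 genes, 114 log2 fold changes under the alternatives kept their direction and side of the threshold, 10 lost it, 4 gained it and 8 turned sign. Of the 3 ratios, Il5 to Il13 turned to -0.17 from corrected CPM. The number of the 8 genes past the threshold was 2, and ranged from 0 to 4 with each library left out. It was 0 with libraries of one code summed, with or without the length and GC correction. With library code as a random block, a fit chosen after seeing the data, it was 2, beside 1091 of 13623 genes. These were Il5 (adjusted p = 0.0227, limma) and Csf2 (adjusted p = 0.0398, limma). With each library left out, the log2 fold change was 0.44 to 0.54 for Il5, -0.92 to -0.55 for Csf2, 0.22 to 0.48 for Il13, -0.0067 to 1.11 for Il9, -0.35 to 0.097 for Il4, -0.14 to 0.038 for Calca, 0.10 to 0.55 for Areg and -0.57 to -0.37 for Tnf. Il4 turned positive without WT replicate 3 (0.097), and Calca without WT replicate 3 (0.038) or SIRPα KO replicate 1 (0.003). With codes summed it was 0.50 for Il5 and -0.87 for Csf2, and with the correction added 0.64 and -0.41, none past the threshold. The correction alone gave 0.78 for Il13, past the threshold, and turned Il4 to 0.28 and Calca to 0.31, and with codes summed to 0.24 and 0.30. DESeq2 gave -0.47 for Tnf, past its threshold. The cause of these changes was not tested. Summing codes and leaving out a library both use fewer samples, and leaving out a library gave changes both ways. Of the 8 genes, 4 were past the threshold without WT replicate 3, beside 2606 of all 14143 genes tested there. Without any one SIRPα KO replicate it was 0 of the 8, beside 16 or 17 of all genes tested.

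Of 89 tested list genes outside the 8, 15 passed, 0 with codes summed, and 1 to 28 with each library left out. Of all genes 1600 passed, against 3214 by DESeq2, 1111 to 2606 without a WT replicate, 16 or 17 without a SIRPα KO replicate, 10 with codes summed and 14 with the correction added. Upper quartile scaling moved the median of all genes to -0.1251 and the calls to 703 higher and 1010 lower, from 809 and 791. Replicate numbers did not pair the samples (correlations of -0.143, 0.191 and 0.0455). With the replicate number as a block, 2 of the 8 genes passed, Il5 at 0.50 and Csf2 at -0.75, and 1118 of all genes. Il4 rested on 124 to 242 reads a library, and the part of depth in its interval was not tested.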
